A study of Mus musculus with 6 samples.

Results

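The collagen genes and a few companion genes of mesenchymal cells were followed in 3 cell populations sorted from the mouse thymus. Members were all genes whose symbol has the form Col, digits, a, digits, together with Dcn, Lum, Pdgfra, Pdgfrb and Fn1, a rule that goes by the symbol alone. The gene table held 49 such genes, of which 48 were among the 20866 genes named on the array: 43 collagen genes and the 5 others. Col12a1 was not named on the array and is not analysed here. A gene was read from the probe with the highest mean level, to which every level and call refers unless another probe is named; 34 members had 1 probe and 14 had several.

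The study asked what RelA, a subunit of the transcription factor NF-kB, does in the thymus of mice that also lack TNF. Mice of the control genotype, labelled TNFalpha-KO, lacked TNF, and those labelled TNFalpha and RelA double KO lacked both, so that by the labels every group in the study was without TNF. All were on the C57BL/6 background and 1.5 to 2 weeks old. From each genotype, CD4+CD25hi thymocytes, sorted as CD8 alpha negative, came from a pool of 5 mice. The other sorts came from 10 thymi each: CD45-EpCAM+ cells are labelled as epithelium of the thymus, and CD45+EpCAM- cells as stroma enriched for macrophages and dendritic cells. These thymi had been digested with collagenase, dispase I and DNase I. Each of the 6 groups was 1 pool on 1 one-colour Agilent array. Differences between genotypes within a population therefore have no replicate check and no test, and the number of arrays limits the precision.

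A level is the log2 processed signal minus the 75th percentile of its array, so that 0 is the signal that 25 in 100 probes exceed. It compares arrays for 1 probe and does not rank genes against each other. "Well above background" is the scanner software's own call, and a gene without it is called dim. The 75th percentile of the signal ran from 108 on the double-knockout CD45-EpCAM+ array to 675, and the share of probes well above background from 47.3% on that array to 66.2% on its TNF-knockout partner. The lowest level that the software called above background was -2.82 on the double-knockout CD45-EpCAM+ array and between -4.51 and -5.54 on the other 5 arrays. Because the 2 arrays of a sort shared a slide that held no other sort, slide and population cannot be told apart. As a check of the labels, the double knockout minus TNF knockout difference of Rela was -1.86 in thymocytes, -2.02 in the CD45-EpCAM+ sort and -0.74 in the CD45+EpCAM- sort; the sources used here do not say which part of the gene was disrupted. The Tnf probe was well above background on 5 of 6 arrays, at -0.64 and -0.78 in thymocytes, -1.49 in TNF-knockout CD45-EpCAM+ cells and -0.57 and -0.64 in CD45+EpCAM- cells. Whether it lies in the deleted part of the gene is likewise not stated, so this signal neither bears out the label nor speaks to the protein. Epcam stood at 2.12 and 1.49 on the CD45-EpCAM+ arrays and between -4.36 and -3.09 on the other 4. In bulk samples, fewer cells of a type and less RNA per cell cannot be told apart.

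Collagens are secreted proteins whose chains wind into triple helices. Fibrillar collagens build the cables of connective tissue and are made above all by fibroblasts. Type IV collagen forms the sheet of basement membranes, on which epithelial cells, endothelial cells and pericytes rest and to which epithelial cells themselves contribute. In the thymus, fibroblasts of the capsule and septa and pericytes around vessels are the main matrix-producing mesenchyme.

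RefSeq promoter windows, from 250 bases before to 50 after an annotated start on build GRCm38.p6, were found for 36 of the 48 members. Members without one were Col14a1, Col1a1, Col22a1, Col26a1, Col2a1, Col4a3, Col5a2, Col9a3, Dcn, Fn1, Lum and Pdgfrb. Several members are neighbours among protein-coding genes: Col4a1 and Col4a2, Col4a5 and Col4a6, Col4a3 and Col4a4, Col6a1 and Col6a2, Col6a4, Col6a5 and Col6a6, Col3a1 and Col5a2, Col9a1 and Col19a1, and Dcn and Lum. Col4a1 and Col4a2 are read in opposite directions from starts so close that their transcripts overlap over 22 bases. That stretch, chr8:11312805-11312826 on the plus strand, is shown because both genes had the same pattern over the arrays; capitals mark all of it.
Col4a1 and Col4a2: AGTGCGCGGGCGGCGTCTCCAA

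The consensus site of NF-kB was searched on both strands, since RelA binds such sites. It was found in the windows of 4 of the 36 members, Col27a1, Col6a4, Col9a1 and Col9a2, and in 4.505% of all 32851 windows. These 4 are shown by their 250 bases before the start, with the match in capitals, because Col9a2 and Col6a4 were among the members lower in the double knockout and Col27a1 was the one member that was 2-fold higher in double-knockout thymocytes. The windows lie at chr4:121039316-121039565 (plus strand), chr9:106096692-106096941 (minus strand), chr4:63215162-63215411 (plus strand) and chr1:24194953-24195202 (plus strand).
Col9a2: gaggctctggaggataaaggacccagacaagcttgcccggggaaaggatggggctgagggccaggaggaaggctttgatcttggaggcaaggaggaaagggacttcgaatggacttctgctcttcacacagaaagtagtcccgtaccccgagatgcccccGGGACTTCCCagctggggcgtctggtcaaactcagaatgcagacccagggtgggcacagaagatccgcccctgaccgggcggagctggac
Col6a4: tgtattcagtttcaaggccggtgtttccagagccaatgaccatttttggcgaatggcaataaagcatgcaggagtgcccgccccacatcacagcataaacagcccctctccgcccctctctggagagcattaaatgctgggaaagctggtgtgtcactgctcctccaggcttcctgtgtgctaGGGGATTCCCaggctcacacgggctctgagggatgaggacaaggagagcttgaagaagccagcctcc
Col27a1: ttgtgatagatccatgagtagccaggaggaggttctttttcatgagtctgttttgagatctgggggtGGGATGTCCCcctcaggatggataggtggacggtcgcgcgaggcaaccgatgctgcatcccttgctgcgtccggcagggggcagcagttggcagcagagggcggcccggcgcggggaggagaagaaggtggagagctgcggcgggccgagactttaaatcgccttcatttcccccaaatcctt
Col9a1: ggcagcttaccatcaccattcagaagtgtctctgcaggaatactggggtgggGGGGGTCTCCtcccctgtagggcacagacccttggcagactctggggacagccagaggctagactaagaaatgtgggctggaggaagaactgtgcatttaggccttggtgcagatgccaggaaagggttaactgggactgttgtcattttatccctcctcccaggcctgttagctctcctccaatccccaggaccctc
The first base of the match lay at -90, -67, -183 and -198 relative to the start in this order, and the match read on the plus strand of the window, on both, on the minus and on the plus strand. Of the shorter motifs, searched on both strands, CCAAT was in the windows of 13 members and in 37.41% of all windows, TATAAA in those of 5 members and in 13.62%, and GGGCGG in those of 22 members and in 35.66%. None of these motifs contains another. A match describes letters only; whether RelA or any other factor binds there was not measured, and a window without a match says nothing about it.

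Collagen transcripts were found mainly in the CD45-EpCAM+ sort. On both of its arrays 24 of 48 members were well above background, against 56.8% of all 20866 genes. In CD4+CD25hi thymocytes it was 13 of 48 members against 58.3% of all genes, and in CD45+EpCAM- cells 18 of 48 against 65.3%. Of the members, 17 were well above background on CD45-EpCAM+ arrays alone, or 35.4% against 11% of all genes, and 9 on all 6 arrays, or 18.8% against 48.9%. Dim on every array were 10: Col4a3, Col6a6, Col8a1, Col9a3, Col11a1, Col13a1, Col19a1, Col24a1, Col28a1 and Pdgfra. The summed signal of the 48 members, in multiples of the array's 75th percentile and with dim probes included, was 61.6 for the TNF knockout and 92.2 for the double knockout in CD45-EpCAM+ cells. It was between 2.38 and 3.97 on the other 4. The 43 collagens made up 39.9 and 45.8 of the CD45-EpCAM+ sums, and the 5 other members, Fn1 and Dcn among them, 21.7 and 46.4.

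**Figure D1:**
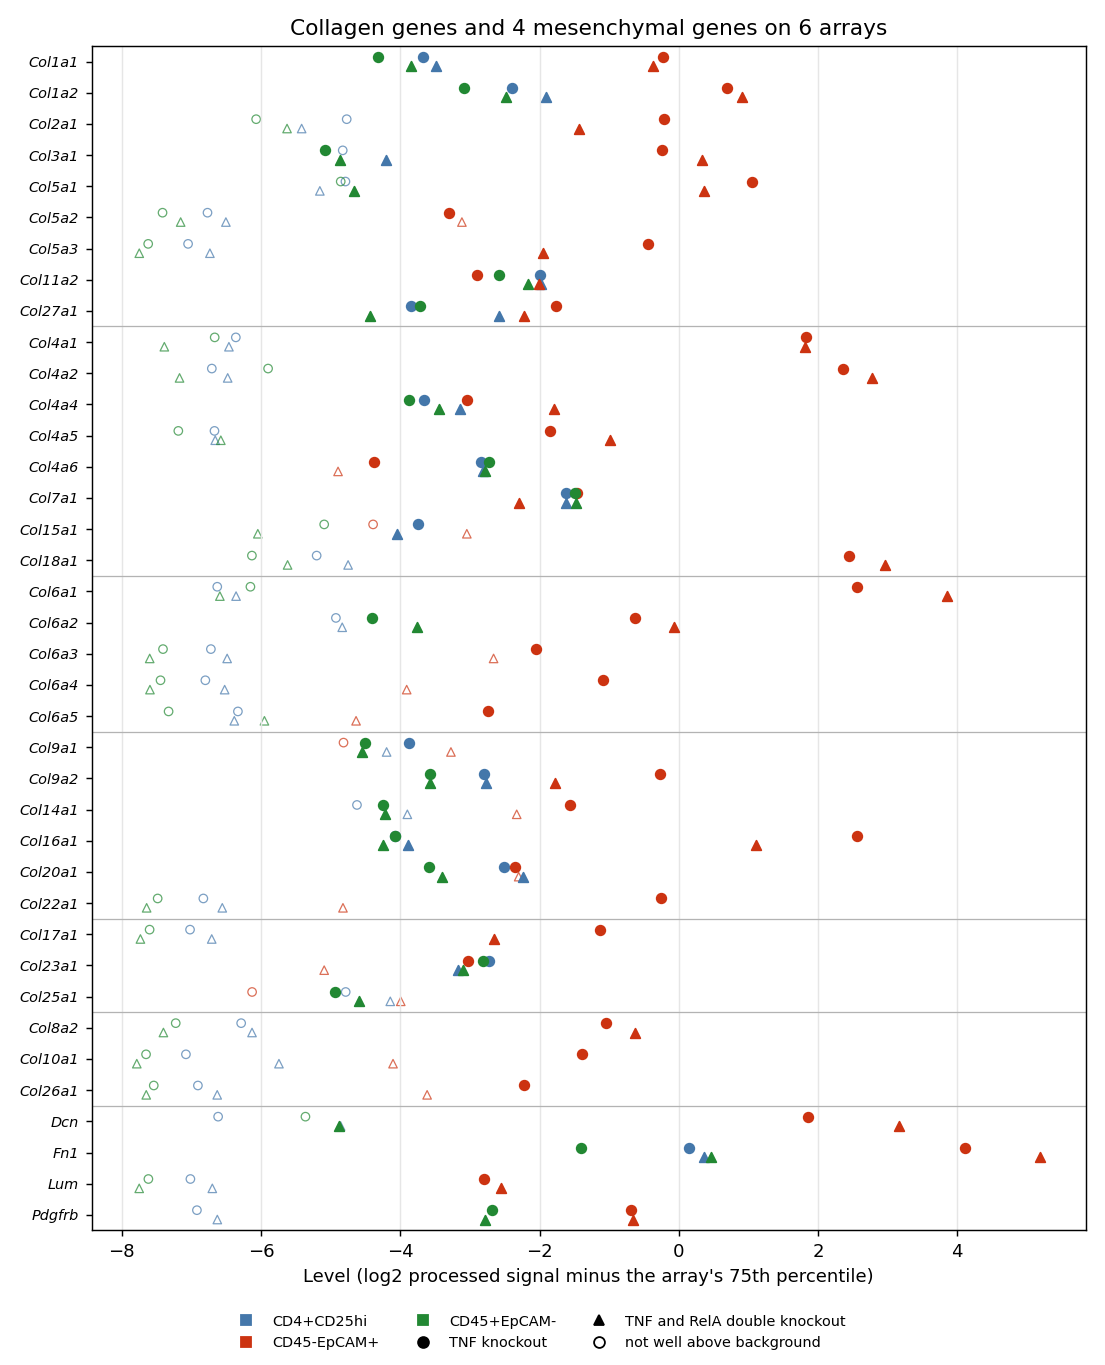
Level of each member well above background on at least 1 array, as log2 processed signal minus the array's 75th percentile, with 1 point per array. Colours are populations, circles TNF knockout, triangles double knockout and open symbols dim probes; grey lines part the fibrillar, basement membrane, beaded filament, fibril-associated, transmembrane, other network-forming and non-collagen members. For most of the genes shown the CD45-EpCAM+ points lie to the right of the others, while those of Col7a1, Col11a2 and Col23a1 lie among them.

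Populations were compared in a limma fit that also held a genotype term, and a gene was called at a Benjamini-Hochberg adjusted p under 0.05 and at least 2-fold. The fit held 31 of the members and 15144 genes in all. Between CD45-EpCAM+ cells and CD4+CD25hi thymocytes 21 members were called higher and 1 lower, where 24.4% of all tested genes were called higher and 16.5% lower (40.9% in all). Against CD45+EpCAM- cells 24 were called higher and 1 lower, beside 23.2% and 17.5% of all genes (40.7% in all). With quantile normalization these backgrounds were 20.91% higher and 21.02% lower in the first comparison and 19.98% and 22.44% in the second, while the members' counts were 20 and 2, and 21 and 2. Centring on the median of detected probes gave 27.15% and 12.1%, and 26.29% and 13%, with 22 and 1, and 24 and 1 members. Under normexp background correction the second background was 28.96% and 14.3%, with 26 members higher and 0 lower. The median over all genes was -0.03 and -0.04, against -0.14 and -0.17 with quantile normalization, 0.19 in both with median centring and 0.11 and 0.26 with normexp. The counts describe the fit only: 10 of the 31 members entered it solely through both CD45-EpCAM+ arrays and so had to differ, and of the other 21 members 11 and 14 were called higher. The 2 arrays of a population are the 2 genotypes, and the p-values therefore carry no estimate of how much pools of 1 genotype vary.

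**Figure D2:**
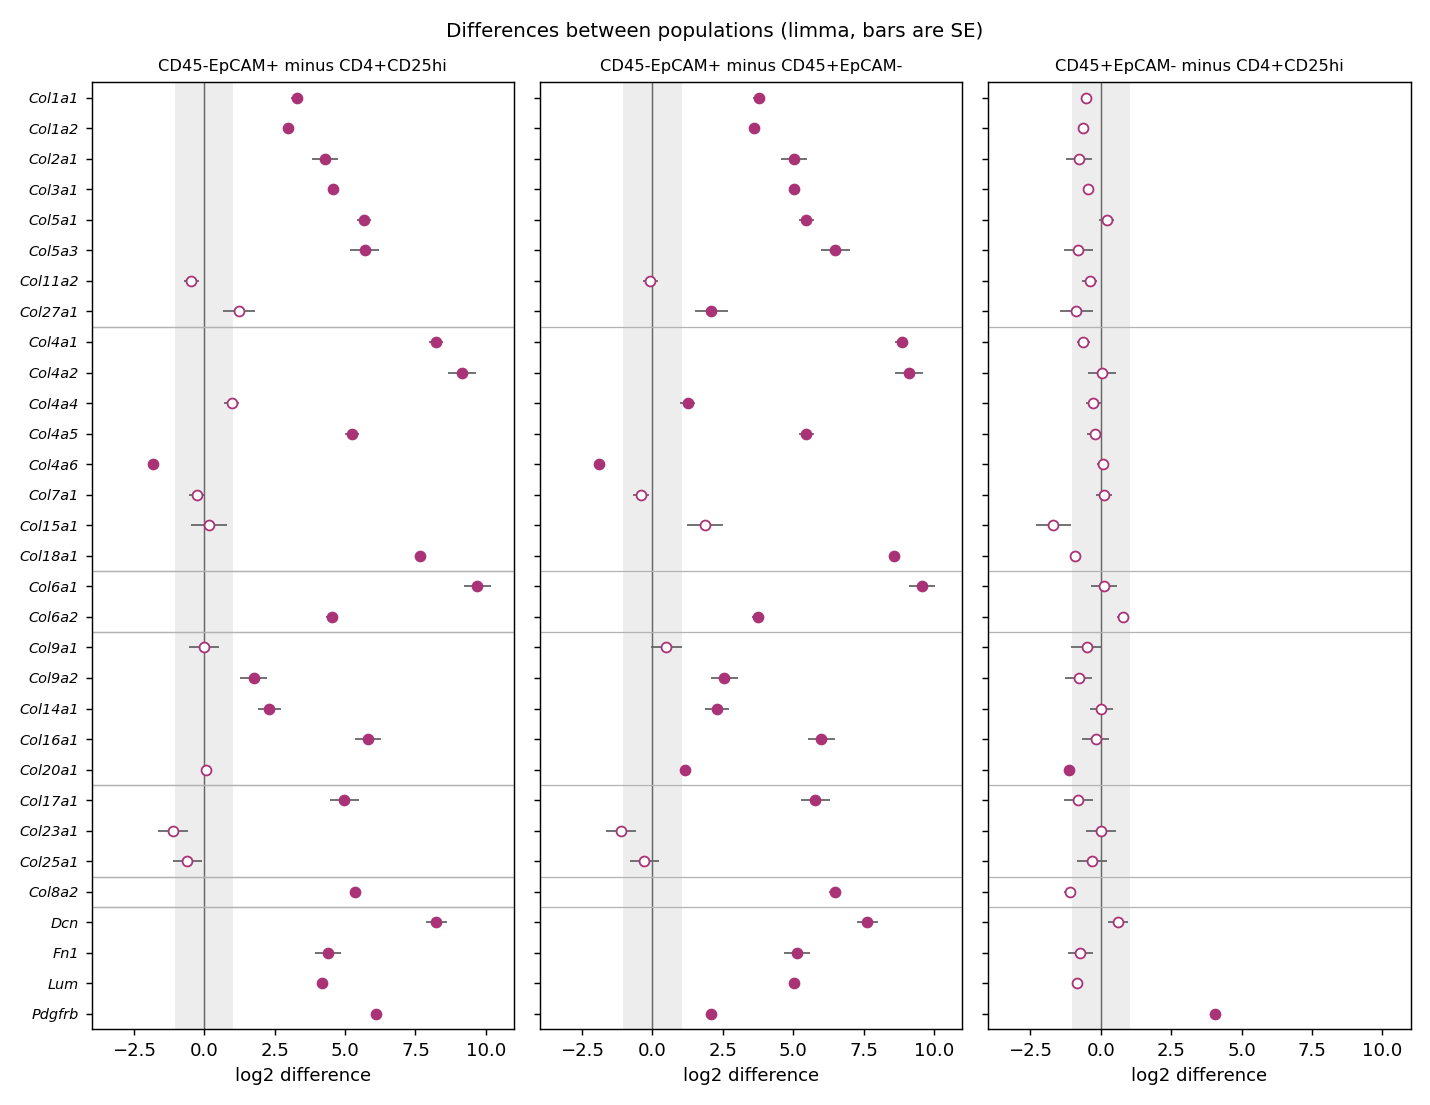
Fitted log2 differences between populations for the 31 tested members, with bars of 1 SE from limma; filled points passed an adjusted p under 0.05 at 2-fold or more, and the grey band marks differences under 2-fold. In both comparisons with CD45-EpCAM+ cells most points lie to the right of the band, and between CD45+EpCAM- cells and thymocytes Pdgfrb and Col20a1 are filled.

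The chains of type I collagen, the main fibril of connective tissue, were detected in every sort and were higher in CD45-EpCAM+ cells. Col1a1 stood at -3.67 (TNF knockout) and -3.49 (double knockout) in thymocytes, -0.23 and -0.37 in the CD45-EpCAM+ sort, and -4.32 and -3.85 in the CD45+EpCAM- sort. Col1a2 stood at -2.40 and -1.91, 0.70 and 0.91, and -3.09 and -2.48 in the same order. Neither gene's CD45-EpCAM+ levels overlapped with the others. Col1a1 was higher there by 3.28 (SE 0.21, limma adjusted p = 0.00235) than in thymocytes and by 3.79 (SE 0.21, limma adjusted p = 0.0021) than in CD45+EpCAM- cells, and Col1a2 by 2.96 (SE 0.17) and 3.59 (SE 0.17).

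Type III collagen, which forms the fine reticular fibres of lymphoid organs, followed the same order. Col3a1 was dim and at -4.20 in thymocytes, at -0.24 and 0.33 in the CD45-EpCAM+ sort and at -5.08 and -4.87 in the CD45+EpCAM- sort, higher in the middle sort by 4.56 (SE 0.17) and 5.02 (SE 0.17, limma adjusted p = 0.00123). Col5a1, a chain of type V collagen, which sits in the core of type I fibrils, was at 1.05 and 0.36 in CD45-EpCAM+ cells and at -4.67 on the double-knockout CD45+EpCAM- array, and dim on the other 3. The CD45-EpCAM+ level was at least 40.9-fold that of thymocytes, and the fitted difference from the CD45+EpCAM- sort, 1 of whose 2 arrays was dim, was 5.47 (SE 0.26). Where both arrays of a sort were dim, its level is set to the lowest level above background on each, or to the probe's own where that is higher, and the fold is given as "at least". Where 1 of 2 was dim, the fitted difference uses its signal as read.

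Col5a3 and Col2a1 were well above background only in the CD45-EpCAM+ sort. Col5a3, another type V chain, stood there at -0.44 and -1.95, with bounds of 11.1-fold over thymocytes and 19.4-fold over the CD45+EpCAM- sort. Col2a1, the collagen of cartilage, stood at -0.21 and -1.43, at least 14.1-fold and 25.2-fold higher. Col5a2 was well above background on the TNF-knockout CD45-EpCAM+ array alone, at -3.31.

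The cartilage-type fibrillar genes Col11a2 and Col27a1 differed less between the sorts. Col11a2 was well above background on all 6 arrays, at -2.00 and -1.98 in thymocytes, -2.90 and -2.00 in CD45-EpCAM+ cells and -2.58 and -2.17 in CD45+EpCAM- cells, and the ranges overlapped. It differed by -0.46 (SE 0.27, limma adjusted p = 0.212) and -0.08 (SE 0.27, limma adjusted p = 0.823) between CD45-EpCAM+ cells and the other sorts. Col27a1 was at -3.85 and -2.59, -1.76 and -2.22, and -3.72 and -4.44 in the same order, highest in the CD45-EpCAM+ sort without overlap. It was not called against thymocytes (1.22, SE 0.58, limma adjusted p = 0.15) and was 2.09 (SE 0.58, limma adjusted p = 0.0479) higher in the CD45-EpCAM+ than in the CD45+EpCAM- sort, a call lost in 6 of 14 alternatives: quantile normalization, no filter, and without any 1 of the CD45-EpCAM+ or CD45+EpCAM- arrays. The remaining fibrillar genes, Col11a1 and Col24a1, were dim on every array.

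Of the basement membrane collagens, 6 of 9 genes were well above background on both CD45-EpCAM+ arrays. Col4a1 and Col4a2, the chains found in nearly every basement membrane and read from the shared start shown above, were dim in both leukocyte sorts. In the CD45-EpCAM+ sort Col4a1 stood at 1.83 and 1.81 and Col4a2 at 2.36 and 2.77. Col4a1 was at least 90.5-fold and Col4a2 at least 151-fold higher there than in thymocytes, and at least 157-fold and 263-fold higher than in CD45+EpCAM- cells. Col18a1, the heparan sulfate collagen from which endostatin is cut, was also confined to that sort among these 6 arrays, at 2.44 and 2.97, with bounds of 167-fold and 290-fold. Its second probe read 2.15 and 2.55 there and was dim elsewhere. Col4a5 stood at -1.85 and -0.99 in CD45-EpCAM+ cells, at least 9.55-fold and 16.6-fold above the dim sorts.

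Other genes of this class differed less between the sorts. Col7a1, the anchoring fibril that ties epithelium to the tissue beneath, stood at -1.62 and -1.61, -1.46 and -2.30, and -1.49 and -1.48, and differed by -0.26 (SE 0.28, limma adjusted p = 0.475) and -0.39 (SE 0.28, limma adjusted p = 0.303). Col4a4 was at -3.66 and -3.14, -3.04 and -1.79, and -3.88 and -3.45, highest in the CD45-EpCAM+ sort by a small margin. Its other probes were dim on all 6 arrays, so these levels rest on 1 probe. Its difference of 1.24 (SE 0.27, limma adjusted p = 0.0264) from the CD45+EpCAM- to the CD45-EpCAM+ sort was lost in 8 of 14 alternatives: quantile normalization, the mean over probes, no genotype term, and without any 1 array except the TNF-knockout CD45-EpCAM+ array. Col15a1 was above background in thymocytes, at -3.74 and -4.04, and dim elsewhere by the probe used, and no comparison called it; another of its probes was above background in TNF-knockout CD45-EpCAM+ cells, at -4.34.

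Col4a6 gave the 1 call in the other direction. Its brightest probe stood at -2.83 and -2.82 in thymocytes, at -4.38 and dim in CD45-EpCAM+ cells and at -2.72 and -2.79 in CD45+EpCAM- cells. It was lower in CD45-EpCAM+ cells by -1.81 (SE 0.20, limma adjusted p = 0.00613) and -1.88 (SE 0.20, limma adjusted p = 0.00593). The probes of this gene disagreed: the other one was above background on the TNF-knockout CD45-EpCAM+ array alone, at -3.87. With the mean over both probes the differences turned to 0.19 and 0.86 (limma adjusted p = 0.332 and 0.0158), and with normexp background correction they were -0.05 and 0.32. The call against thymocytes was also lost without the double-knockout thymocyte array (limma adjusted p = 0.0533), and that against CD45+EpCAM- cells without either array of that sort (0.0532 and 0.0582).

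Type VI collagen, whose chains assemble into beaded filaments around cells, was led by its core chains. Col6a1 stood at 2.55 and 3.85 in CD45-EpCAM+ cells and was dim on the other 4 arrays, at least 235-fold below in thymocytes and at least 409-fold below in CD45+EpCAM- cells. Col6a2, its neighbour in the genome, stood at -0.62 and -0.06 in CD45-EpCAM+ cells and at -4.41 and -3.75 in CD45+EpCAM- cells, and was dim in thymocytes. It was at least 20.2-fold above thymocytes and 3.74 (SE 0.20, limma adjusted p = 0.0021) above CD45+EpCAM- cells. Of the third chains, Col6a3, Col6a4 and Col6a5 were above background on the TNF-knockout CD45-EpCAM+ array alone, at -2.05, -1.08 and -2.73, and did not enter the fit.

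Among the fibril-associated collagens, which decorate the surface of fibrils, Col16a1 differed most from the other sorts. It stood at -4.08 and -3.88 in thymocytes, 2.56 and 1.11 in CD45-EpCAM+ cells and -4.08 and -4.25 in CD45+EpCAM- cells. The middle sort was higher by 5.82 (SE 0.47) and 6.00 (SE 0.47, limma adjusted p = 0.00373). A second Col16a1 probe read -0.53 and -2.20 in CD45-EpCAM+ cells and was dim elsewhere, and another was above background at -3.43 on the double-knockout thymocyte array and at -3.70 on the TNF-knockout CD45-EpCAM+ array.

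Col9a2, a partner of cartilage fibrils, was at -2.80 and -2.77, -0.27 and -1.78, and -3.57 and -3.57. It was higher in CD45-EpCAM+ cells by 1.76 (SE 0.48, limma adjusted p = 0.0459) and 2.55 (SE 0.48, limma adjusted p = 0.0195). The first call was lost in 7 of 14 alternatives: quantile normalization, no filter, and without any 1 array except the double-knockout CD45-EpCAM+ array. The second was lost without either CD45+EpCAM- array (limma adjusted p = 0.111 and 0.0696). Col14a1 was at -1.56 and dim in CD45-EpCAM+ cells, -4.25 and -4.21 in CD45+EpCAM- cells and dim in thymocytes. It was called higher in CD45-EpCAM+ cells in both comparisons, by at least 4.98-fold against thymocytes and by a fitted 2.29 (SE 0.41) against CD45+EpCAM- cells, with 1 of the 2 CD45-EpCAM+ arrays dim. The first call was lost without the TNF-knockout thymocyte array (limma adjusted p = 0.0758) and under normexp (0.88, under 2-fold), and the second without either CD45+EpCAM- array (limma adjusted p = 0.101 and 0.0942).

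The rest of this class had no common pattern over the sorts. Col20a1 stood at -2.51 and -2.24 in thymocytes, -2.36 and dim in CD45-EpCAM+ cells and -3.58 and -3.40 in CD45+EpCAM- cells. It was 1.16 (SE 0.14, limma adjusted p = 0.00742) higher in the second than in the third, a call lost with quantile normalization (0.47) and without either CD45+EpCAM- array. Col9a1 was read at -3.87 on the TNF-knockout thymocyte array and at -4.51 and -4.56 in CD45+EpCAM- cells, and dim on the other 3. Col22a1 was above background on the TNF-knockout CD45-EpCAM+ array alone, at -0.26.

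Col17a1, the transmembrane collagen by which epithelial cells hold on to their basement membrane, was well above background in the CD45-EpCAM+ sort alone, at -1.14 and -2.65. That was a bound of 6.90-fold over thymocytes and of 12.0-fold over the CD45+EpCAM- sort. Col23a1, also transmembrane, was at -2.73 and -3.18, -3.03 and dim, and -2.82 and -3.10, with overlapping sorts and no call; without the TNF-knockout CD45-EpCAM+ array it was called lower there, by -1.96 and -1.95. Col25a1 was above background in CD45+EpCAM- cells, at -4.94 and -4.60, and dim elsewhere by the probe used, while another of its probes was above background in TNF-knockout thymocytes, at -4.37. Of the network-forming genes, Col8a2 stood at -1.05 and -0.63 in CD45-EpCAM+ cells, at least 14.3-fold and 24.8-fold higher; another probe of it was above background on the double-knockout CD45+EpCAM- array, at -4.92. Col10a1 and Col26a1 were above background on the TNF-knockout CD45-EpCAM+ array alone, at -1.39 and -2.22.

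Of the non-collagen members only Lum was well above background in the CD45-EpCAM+ sort alone, and Pdgfra was dim on every array. Dcn, the proteoglycan decorin that binds collagen fibrils and a standard marker of fibroblasts, stood at 1.85 and 3.16 in CD45-EpCAM+ cells and at -4.88 on the double-knockout CD45+EpCAM- array, and was dim on the other 3. It was at least 145-fold above thymocytes, and the fitted difference from CD45+EpCAM- cells, with 1 of their 2 arrays dim, was 7.63 (SE 0.36, limma adjusted p = 0.00174). Lum, its neighbour and relative lumican, was at -2.80 and -2.55 in CD45-EpCAM+ cells and dim elsewhere, at least 6.96-fold above the CD45+EpCAM- sort.

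Pdgfrb, the receptor that marks pericytes and many fibroblasts, was at -0.68 and -0.65 in CD45-EpCAM+ cells, at -2.68 and -2.78 in CD45+EpCAM- cells and dim in thymocytes. It was 2.06 (SE 0.16, limma adjusted p = 0.00384) higher in the first than in the second. Between CD45+EpCAM- cells and thymocytes 1 member was called higher, where 6.35% of all genes were, and 1 lower, where 3.92% were (10.3% in all): Pdgfrb, by at least 3.86-fold (limma adjusted p = 0.013), and Col20a1, by -1.12 (SE 0.14, limma adjusted p = 0.0302). Without any 1 of these 4 arrays no gene at all was called, and normexp called neither member, with backgrounds of 4.41% and 4.25%. Pdgfra, the other receptor of the family and a defining marker of fibroblasts, was dim on all 6 arrays. Fn1, the matrix glycoprotein fibronectin, which macrophages and endothelial cells also make, was found everywhere. It stood at 0.15 and 0.36 in thymocytes, 4.12 and 5.19 in CD45-EpCAM+ cells and -1.40 and 0.46 in CD45+EpCAM- cells, higher in the middle sort by 4.40 (SE 0.45) and 5.13 (SE 0.45, limma adjusted p = 0.00453).

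Genes that make and fix collagen were also called higher in CD45-EpCAM+ cells in part. Of 25 tested genes of collagen processing, out of 30 on the array, 16 were called higher in CD45-EpCAM+ cells than in thymocytes and 13 than in CD45+EpCAM- cells, and none lower, beside 24.4% and 23.2% of all genes higher. As with the members, 3 of the 25 entered the fit only through both CD45-EpCAM+ arrays and so had to differ, and of the other 22 the counts were 13 and 10. Their median differences over the 25 were 1.76 and 1.46, against -0.03 and -0.04 over all genes. Adamts2, which trims procollagen, was at least 173-fold and 300-fold higher, but was 1 of the 3 that had to differ. Serpinh1, the collagen chaperone of the endoplasmic reticulum, was at least 118-fold above thymocytes. Fkbp10, which helps collagen to fold, was higher by 4.72 (SE 0.34) and Pcolce, which speeds its trimming, by 5.09 (SE 0.33) than in CD45+EpCAM- cells. Lox, which cross-links fibrils, was dim on every array.

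All 14 tested genes of other basement membrane components were called higher in CD45-EpCAM+ cells in both comparisons, where 24.4% and 23.2% of all genes were. Of these, 2 entered the fit only through that sort, and the other 12 were all called. Their medians were 3.41 and 4.30. The 2 that entered only through that sort, and so had to differ, were the laminin chains Lamb1 (at least 245-fold and 407-fold) and Lama4 (at least 23.2-fold and 40.4-fold). Of 9 tested genes of collagen degradation and its inhibitors 5 were called higher in each comparison, led by Timp3 (at least 244-fold and 425-fold) and Mmp2 (at least 130-fold and 225-fold). These 2 genes entered the fit only through both CD45-EpCAM+ arrays and so had to differ. Of the other 7 genes 3 were called higher in each comparison, beside the same 24.4% and 23.2% of all genes. Of 5 tested collagen receptor genes 2 and 3 were called higher and, in the second comparison, 1 lower: Lair1, an inhibitory collagen receptor of leukocytes, by -2.90 (SE 0.34, limma adjusted p = 0.00735). Of these 5, 1 entered the fit only through both CD45-EpCAM+ arrays, and of the other 4, 1 and 2 were called higher.

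The labels call the CD45-EpCAM+ sort epithelial, and the markers of several cell types moved with the members. Of 15 tested other fibroblast and mesenchymal markers, out of 20, 11 were called higher there than in thymocytes and 10 than in CD45+EpCAM- cells, beside the same 24.4% and 23.2% of all genes. Entry through the CD45-EpCAM+ arrays alone applied to 6 of them, and of the other 9 the counts were 5 and 4. Against CD45+EpCAM- cells Mgp, Fbln5 and Fbn1 were higher by at least 142-fold, 65.1-fold and 17.5-fold, and the secreted matrix protein Sparc was 7.15 (SE 0.36) higher. The summed signal of the 20 markers was 51.7 and 72.6 on the CD45-EpCAM+ arrays, 1.99 and 2.47 in thymocytes and 4.43 and 4.73 in CD45+EpCAM- cells. Prrx1, Tcf21 and Postn were dim on every array, as was Pdgfra, so that the set of fibroblast markers was present only in part.

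Thymic epithelial markers were called higher in CD45-EpCAM+ cells in 12 of 12 cases in both comparisons. Over all genes 24.4% and 23.2% were called higher and 16.5% and 17.5% lower, shares that apply to each list here. Of the 12 markers 3 entered the fit only through both CD45-EpCAM+ arrays, and the other 9 were all called. Their summed signal was 712 and 987 on these arrays for all 12, and between 1.01 and 1.55 elsewhere. Of 6 tested pericyte and smooth muscle markers 4 and 3 were called higher, Myh11 by at least 68.4-fold and 119-fold. Myh11 entered the fit only through both CD45-EpCAM+ arrays, and of the other 5 markers 3 and 2 were called higher. The summed signal of the pericyte and smooth muscle list was 24.8 and 39.5 against 12.9 to 18.5. Endothelial markers had mixed calls: of 5 tested, 2 were higher and 1 lower than in thymocytes, and 2 lower than in CD45+EpCAM- cells, Tie1 and Emcn were dim on all arrays, and the summed signal was 7.88 and 10.6 against 10.3 to 19.1. Macrophage markers were called higher than in thymocytes in 8 of 8 cases, and lower than in CD45+EpCAM- cells in 3. The summed signal of 10 T lineage markers was 436 and 389 in CD45+EpCAM- cells, against 301 and 282 in CD4+CD25hi thymocytes. The sort labelled as stroma thus also carried T lineage transcripts. Ptprc, which encodes CD45, stood at -0.46 and 0.72 in the CD45-EpCAM+ sort and between 3.43 and 3.80 in the others. Which of these cells held the collagen transcripts was not tested.

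**Figure D3:**
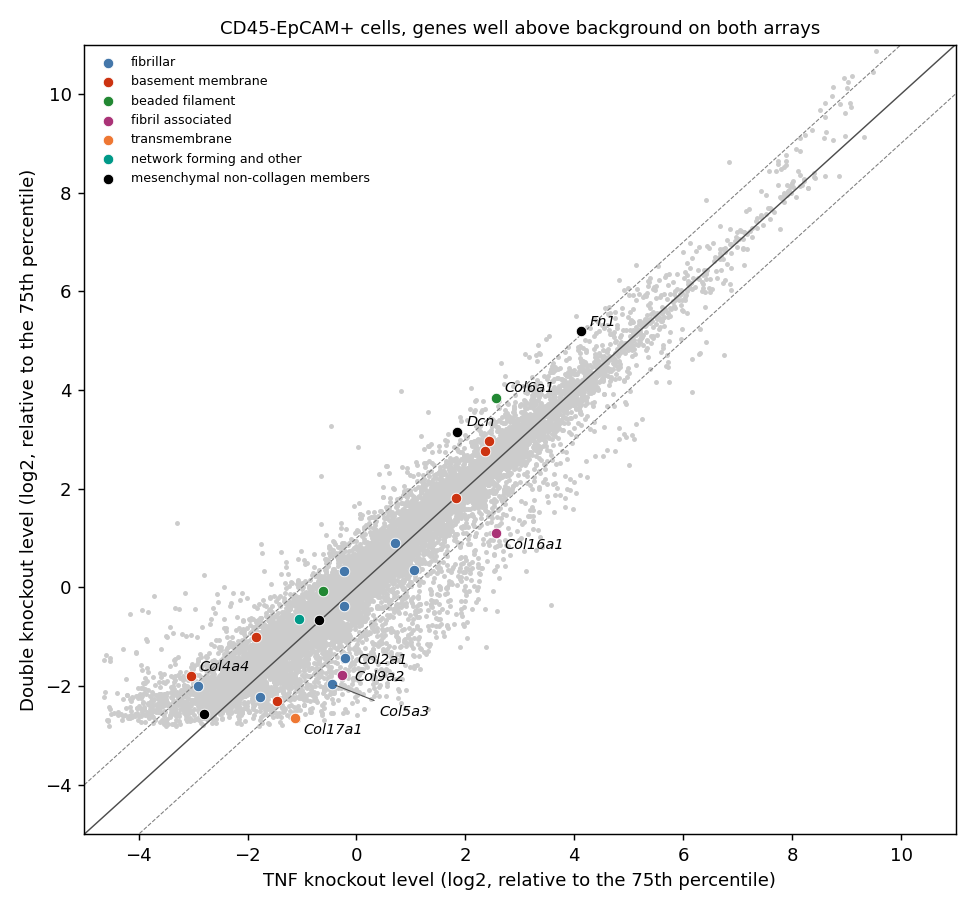
Levels on the double-knockout against the TNF-knockout CD45-EpCAM+ array for the 11847 genes well above background on both (grey) and the 24 members among them (coloured by class). The solid line is equality, and dashed lines are 2-fold; named members lie beyond them, 4 above and 5 below, with Col16a1, Col2a1, Col9a2, Col5a3 and Col17a1 on the lower side.

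Within CD45-EpCAM+ cells the double knockout had less Col2a1, Col5a3, Col6a4, Col9a2, Col10a1, Col16a1, Col17a1 and Col22a1. It had more Dcn, Col6a1, Col4a4 and Fn1, while Col1a1, Col1a2, Col4a1 and Col4a2 lay within 2-fold. A fold could be given for 31 of 48 members: 24 were above background on both arrays and 7 on the TNF-knockout array alone, which gives a bound. Of these, 8 were at least 2-fold lower in the double knockout, where 9.3% of 13208 genes were, and 4 at least 2-fold higher, where 5.1% were (14.4% in all). These are 25.8% and 12.9% of the members with a fold. The members' median difference was -0.08 and that of all genes 0.03. Another 4 members gave no fold, and 13 were dim on both arrays.

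The lower members were of several classes. Col22a1, found at tissue junctions, was at -0.26 in the TNF knockout and dim in the double knockout, at least 5.89-fold lower. Col6a4 and Col10a1, the latter a collagen of cartilage, were at -1.08 and -1.39 against dim, at least 3.32-fold and 2.69-fold lower. Col17a1, Col5a3 and Col9a2 differed by -1.51 each, Col16a1 by -1.44 (with its second probe at -1.67) and Col2a1 by -1.22. As a measure of probe error, the genotype difference varied among probes of the same gene with an SD of 0.32, over 2576 genes.

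The higher members included the fibroblast proteoglycan and a type VI chain. Dcn was 2.47-fold higher, Col6a1 2.45-fold, Col4a4 2.38-fold and Fn1 2.11-fold. The other probes of Col4a4 were dim on all 6 arrays, so its difference rests on 1 probe. Under the normexp background correction 3 of the 12 kept a 2-fold difference, Col4a4 at 1.14, Col16a1 at -1.60 and Col22a1 at a bound of -1.05. With that correction 27 members had a fold, and 1 was at least 2-fold higher and 2 lower, beside 3.85% and 4.65% of all genes. The excess over all genes was thus smaller than in the main setting. The other 9 kept their direction with smaller sizes, from -0.63 to -0.27 on the lower side and from 0.64 to 0.83 on the higher. The mean over its probes brought Col6a4 to -0.19; its other probe was above background on the TNF-knockout array alone, at -4.17, and gave no fold. None of the 12 changed direction with any scaling tried.

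Other members of this pair differed less than 2-fold. Among the fibrillar genes the differences were -0.15 for Col1a1, 0.21 for Col1a2, 0.56 for Col3a1, -0.69 for Col5a1, 0.90 for Col11a2 and -0.45 for Col27a1. Among those of the basement membrane they were -0.02 for Col4a1, 0.42 for Col4a2, 0.86 for Col4a5, 0.53 for Col18a1 and -0.83 for Col7a1. The basement membrane class thus held 1 gene past 2-fold among 6 with a fold, and the fibrillar class 2 among 8. For Col6a2 the difference was 0.56, for Col8a2 0.42, for Lum 0.24 and for Pdgfrb 0.03. Bounds under 2-fold were -0.77 for Col14a1, -0.61 for Col6a3, -0.60 for Col26a1 and -0.08 for Col6a5. Another Col14a1 probe, above background on both arrays, differed by -1.49, which is past 2-fold.

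Several markers differed in the same pair. Of 15 other fibroblast and mesenchymal markers with a fold, 4 were at least 2-fold lower in the double knockout, among them Igf1 (-1.69), Pi16 (-1.46) and Mfap5 (-1.36), and Twist1 was higher (1.55), and their median was 0.02. The smooth muscle and pericyte genes Cnn1 and Rgs5 were at least 8.02-fold and 6.57-fold lower, dim in the double knockout, while Tagln was 1.16 higher. Of the 12 thymic epithelial markers 6 were above 0 and 6 below, with a median of 0.02; Aire (-1.90), Cldn3 (-1.50) and Cldn4 (-1.37) were at least 2-fold lower and Ly75 (1.11) higher, and their summed signal was 712 in the TNF knockout and 987 in the double knockout. Of 7 macrophage markers with a fold 6 were higher, 2 of them at least 2-fold, and 1 was at least 2-fold lower (-1.43). Over all genes of this pair 5.1% were at least 2-fold higher and 9.3% lower. The macrophage markers had a median of 0.88 and a summed signal of 6.10 and 9.15, and Ptprc differed by 1.18. Of 4 parathyroid genes, Pth and Chga were 13.4-fold and 4.74-fold higher, Casr differed by -0.31 and Gcm2 gave no fold. The summed signal of 10 T lineage markers was 92.2 in the TNF knockout and 176 in the double knockout. Of the laminins and other basement membrane genes 12 of 14 lay within 2-fold, with a median of 0.22. The double-knockout array was also the dimmest of the 6. The part of these markers and of the signal strength in the members' differences was not tested.

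**Figure D4:**
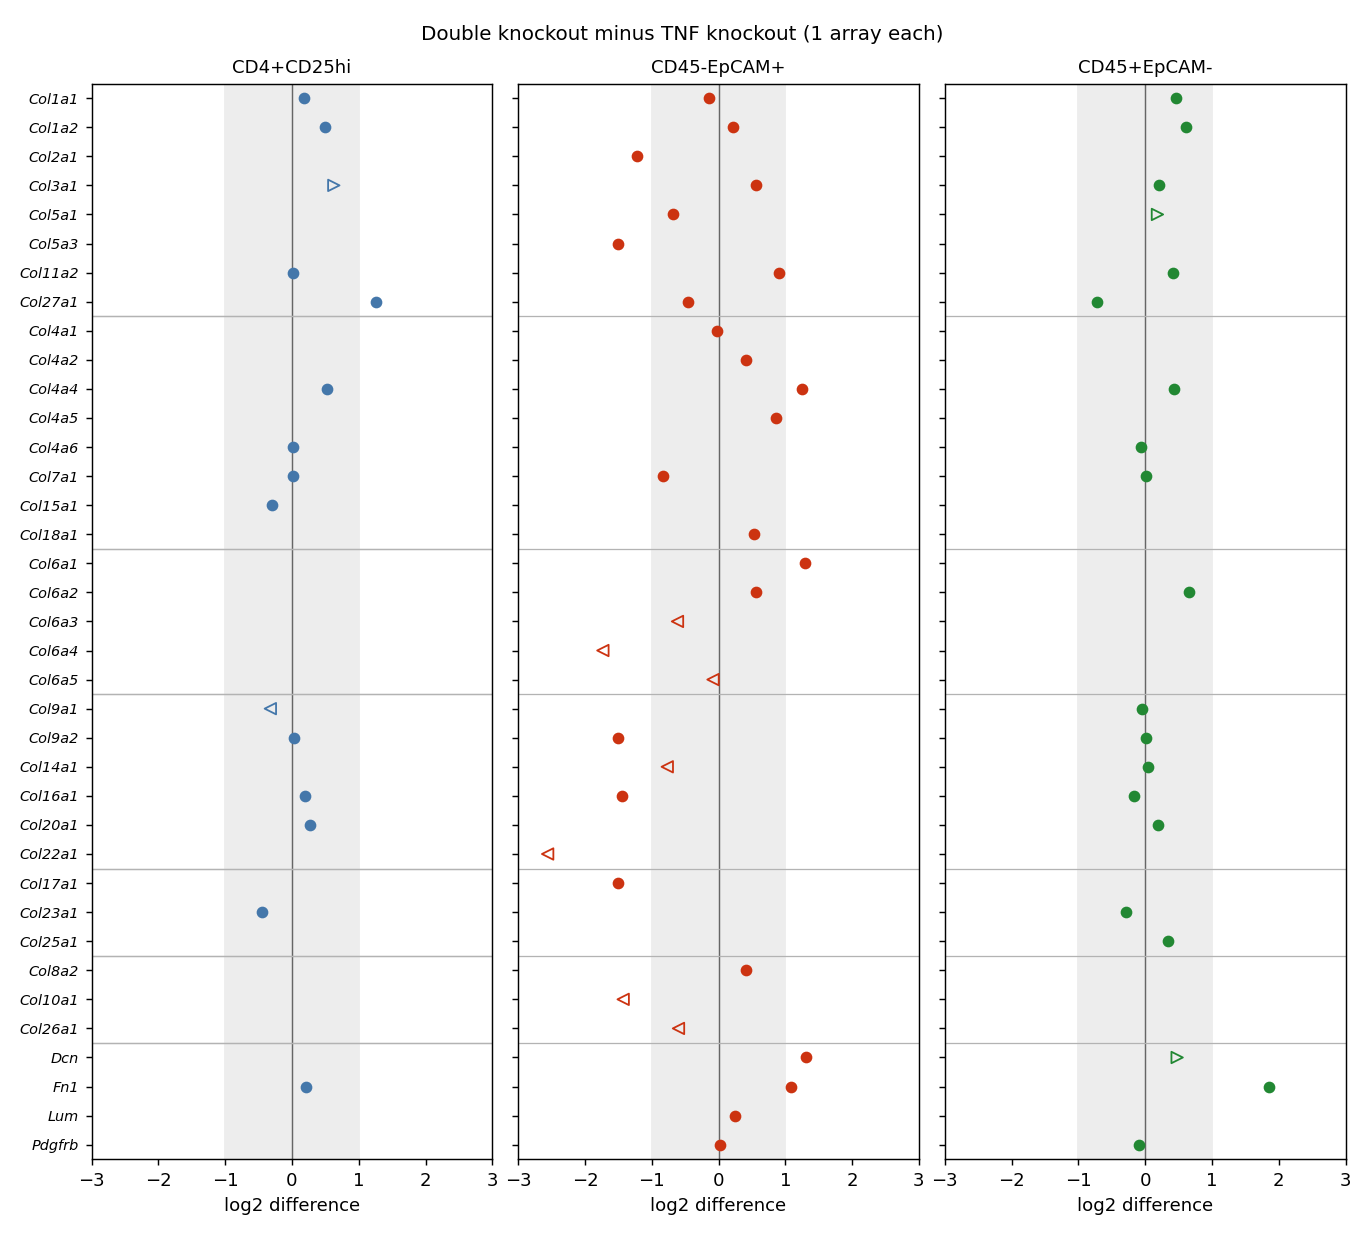
Log2 difference, double knockout minus TNF knockout, for each member with a fold, in 1 panel per population with 1 array per genotype. Filled circles were above background on both arrays, open triangles are bounds that point away from the dim array, and the grey band marks differences under 2-fold. The CD45-EpCAM+ panel has 12 points beyond the band, and each of the other panels has 1.

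The members differed little between genotypes in the other sorts. In CD4+CD25hi thymocytes 15 members had a fold, with a median of 0.19 against -0.02 over all genes. Col27a1 was 2.40-fold higher in the double knockout, at -2.59 against -3.85, and was the only one of the 15 at 2-fold or more, where 1.68% of 12936 genes were higher and 1.28% lower (2.95% in all). It was 0.51 with normexp. Col3a1 (at least 0.63), Col4a4 (0.53) and Col1a2 (0.49) followed, and Col7a1, Col11a2, Col9a2 and Col4a6 differed by 0.03 or less.

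In CD45+EpCAM- cells 20 members had a fold, with a median of 0.19 against -0.01, which was -0.05 with normexp. Fn1 was 3.63-fold higher in the double knockout, at 0.46 against -1.40, and no other member reached 2-fold, where 1.82% of 14588 genes were higher and 2.08% lower (3.89% in all). Col6a2 (0.66), Col1a2 (0.61) and Col1a1 (0.47) lay above 0 and Col27a1 (-0.71) below. Dcn was dim in the TNF knockout and at -4.88 in the double knockout, a bound of 0.48. The summed signal of the 8 macrophage markers was 11.8 and 19.4 in this pair, and its part in the Fn1 difference was not tested.

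For the genotype effect common to the populations, limma with population as a block called none of the 31 tested members and none of the 15144 genes (0% called). At an unadjusted p under 0.05 there were 5 members and 903 genes. The smallest adjusted p was 0.717 among the members and 0.582 overall.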

How the data were processed

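RNA of 6 pools, 1 per genotype and sorted population, was amplified, labelled with Cy3 and hybridised to one-colour Agilent mouse arrays of design 026655. The intensity values used are the processed signals that the authors deposited in scanner files; per the file headers, Feature Extraction 10.5.1.1 made them, while the submitters' processing notes name version 9.5. The authors also deposited a table of log2 values; after comparison with the scanner files these were found to be scaled to the 75th percentile of each array, and they matched the values computed here to within 0.05 for 100% of probes. That table served as an alternative.

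Control spots were left out, as were 10 probes whose spots were all marked as outliers on some array, which left 39419. Each level is the log2 of a processed signal from which the 75th percentile of its array was subtracted. Probes were named through their accession and the RefSeq gene table of GRCm38.p6: 27472 had 1 symbol, 35 several and 11912 none, and 20866 genes were named. Gene names came from another build than the array's annotation. The only coordinates given are those of the printed promoter sequences and the Col4a1 and Col4a2 overlap, on GRCm38.p6.

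Genes well above background on at least 2 of 6 arrays (15144) entered limma 3.58.1 in R 4.3.3, with population and genotype as terms and 2 residual degrees of freedom; p-values were Benjamini-Hochberg adjusted over all of them. The script was tested on simulated data. Every member was accounted for; those above background on both arrays of a population, or 2-fold apart between genotypes, were named with their values, and up to 4 genes per related list, the largest first. The members and lists were chosen with earlier results of these data known. The alternatives were median centring, quantile normalization, normexp, the mean over probes, the deposited table, other filters and folds, no genotype term, and leaving out each array. Normexp (offset 50) used the median spot and background signals, in place of the planned mean spot signal, which was not used here. The p-values measure only the spread between these 6 samples.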

Additional observations from a re-analysis of the deposited data

Results flagged for a closer look

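Col27a1 differed between genotypes in opposite directions: the double knockout was higher by 1.26 in CD4+CD25hi thymocytes, and the differences were -0.45 in CD45-EpCAM+ cells and -0.71 in CD45+EpCAM- cells. With 1 array per group, the difference between populations was not tested.

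Signal was also present in probes that the choice of the brightest probe set aside. Another probe of Col14a1 stood at 0.47 (TNF knockout) and -1.02 (double knockout) in CD45-EpCAM+ cells and was dim on the other 4 arrays. Another probe of Col9a1 stood at -0.75 and -1.24 on the same arrays and was likewise dim elsewhere, while the probe used was dim on both. For these 2 genes the CD45-EpCAM+ levels therefore depend on the probe.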

How the results depend on the processing

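Of 100 counts and medians recomputed under the alternatives 83 were scored as the same. That meant a count equal to the main one or within 1.5-fold of it, or a median within the SD between probes. Of 901 values of named genes 832 were scored as the same. For a genotype difference this meant a value within that SD, and for a population difference an unchanged call or lack of one. Of the rest 3 were reversed, all of Col4a6. These were 0.19 and 0.86 with the mean over probes, against thymocytes and against CD45+EpCAM- cells, and 0.32 with normexp against the latter. Members at least 2-fold apart between genotypes numbered 12 in CD45-EpCAM+ cells, 3 with normexp and 19 at 1.5-fold. Of all genes 3.85% were higher and 4.65% lower with normexp, and 14.14% and 15.21% at 1.5-fold. Such members numbered 1 in thymocytes, 0 with normexp and 2 at 1.5-fold, where 7.3% and 4.79% of all genes passed. In CD45+EpCAM- cells there was 1, and 4 at 1.5-fold, where 5.34% and 4.57% of all genes passed. The median difference in CD45+EpCAM- cells was 0.19 and, with normexp, -0.052. Asking for 3 arrays above background left 19 members to test, and the called members went from 22 to 12 against thymocytes and from 25 to 15 against CD45+EpCAM- cells. These were 11 higher and 1 lower, and 14 higher and 1 lower. Of all genes 20.66% were then higher and 18.27% lower in the first comparison, and 19.39% and 19.18% in the second. Between CD45+EpCAM- cells and thymocytes, 2 members were called, 0 with normexp, and 1 with the mean over probes and 1 without a filter. With the mean over probes 5.91% of all genes were higher and 3.81% lower, and without a filter 1.5% and 0.6%. Leaving out 1 array gave 20 to 23, 19 to 27 and 0 to 4 called members in these comparisons, and 0 for the genotype effect in each case. The cause was not tested. No paired analysis was possible because the labels carry no replicate numbers that would pair pools, with 1 array in each group; the common genotype effect was fitted with the sort itself as the block.

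Signal over background limits the CD45-EpCAM+ pair: the double-knockout array called 24 members above background and its partner 35, so that 7 of the differences are bounds.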

Other observations

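Some genes that read or cut collagen differed in the leukocyte sorts, where the members themselves were mostly dim. Lair1, an inhibitory collagen receptor of leukocytes, stood at -2.89 and -2.72 in CD4+CD25hi thymocytes and at 0.33 and -0.55 in CD45+EpCAM- cells. It was higher in the latter by 2.69 (SE 0.34, limma adjusted p = 0.0312), although no gene was called in that comparison without any 1 of its 4 arrays. Within CD45+EpCAM- cells the collagenase genes Mmp8 and Mmp13 were dim in the TNF knockout and at -4.20 and -4.09 in the double knockout, at least 2.32-fold and 2.50-fold higher. They were 2 of 8 genes of collagen degradation and its inhibitors with a fold, and 0 were 2-fold lower. Over all genes of this pair 1.82% were at least 2-fold higher and 2.08% lower. The collagen receptor gene Ddr1, 1 of 3 with a fold, was 4.61-fold lower in the double knockout of the same sort, at -5.43 against -3.22. The lowest level above background on that double-knockout array was -5.54. Of 22 collagen processing genes with a fold there, Serpinh1 was at least 2.79-fold lower and Pcolce2 at least 2.17-fold higher. In thymocytes Pcolce2, which helps to trim procollagen, was dim in the TNF knockout and at -1.99 in the double knockout, at least 7.22-fold higher. It was the only 1 of 18 processing genes with a fold there to reach 2-fold, beside 1.68% of all genes higher and 1.28% lower. Each genotype difference rests on 1 array a side.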
